A study of Homo sapiens with 30 samples.

Results

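The comparison set 12 bead arrays from cells with a short hairpin RNA (shRNA) against a checkpoint kinase beside 3 arrays from cells with shControl. These are 15 of the 30 arrays in the series, namely those labelled set 2, and the members were chosen by their labels and by no measured value. The knockdown groups were shATM, shATR, shCHK1 and shCHK2, with 3 arrays each, and the shControl group had 3 arrays. A gene's difference below is the mean of the 4 knockdown group means minus the shControl mean, on the log2 scale. Every culture, shControl included, was labelled as the line MCF-10A, an immortalized non-transformed human breast epithelium, with overexpressed cyclin E and a stable shRNA. Plates were seeded with 200000 cells and harvested after 48 hours, per the labels. The labels do not say whether a line was a clone or a pool, what separates the sets, or whether replicates were separate cultures. All p-values and standard errors (SE) therefore reflect how far arrays of a group lie apart, which may be technical variation alone.

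ATM and ATR are the kinases that sense broken DNA and stalled replication forks, and they act mainly through the effector kinases CHK2 (gene CHEK2) and CHK1 (gene CHEK1). Cyclin E drives cells into S phase with CDK2, and its excess is known to stall forks and to engage this signalling. MCF-10A cells are basal-like epithelium grown with epidermal growth factor, and the line is known to carry a deletion at 9p21 that removes the cell cycle inhibitors CDKN2A and CDKN2B.

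Between 18984 and 20487 probes were detected (detection p under 0.05) on the knockdown arrays and between 20142 and 20936 on the shControl arrays. The first principal component held 77.0% of the variance and placed the knockdown arrays between -25.1 and -20.4, against 90.6 to 92.4 for shControl. Levels across genes correlated at r = 0.982 to 0.993 between arrays of different knockdowns, against 0.897 to 0.909 between knockdown and shControl arrays and 0.987 to 0.995 within groups, where genes are not independent replicates. Replicate 3 of shATR stood apart from its group on the third component. The 4 knockdowns share the same 3 shControl arrays, so that an error in the shControl mean enters each of their differences alike, and their values are given side by side.

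The targeted genes were read first, as a check of the labels. CHEK1 lay at 8.47, 8.49 and 8.63 on the shCHK1 arrays (replicates 2, 1 and 3), below all other arrays, which lay between 9.57 and 10.21. Its shCHK1 mean was -1.49 ± 0.11 (SE) from the mean of the other 3 knockdowns (limma, adjusted p = 3.86e-06). CHEK2 lay -0.77 ± 0.10 from the other knockdowns on the shCHK2 arrays (adjusted p = 0.000467), and ATM -0.68 ± 0.096 on the shATM arrays (adjusted p = 0.000324). Each was the lowest of the knockdowns in its own group. Against shControl, CHEK2 differed by -0.15 in shCHK2 (adjusted p = 0.33) on the probe used for it. On that probe it was higher than in shControl in the 3 other knockdowns, by 0.55 to 0.73. On the other CHEK2 probe, the shCHK2 arrays lay at 6.90, 7.10 and 6.91, all below the shControl arrays at 7.53, 7.36 and 7.41. The mean difference of the knockdowns on that probe was 0.099. For ATM, the mean difference was 0.20 on the probe used and -0.51 on the other, where the shATM arrays were again the lowest. ATR was detected on 3 of 12 knockdown and 1 of 3 shControl arrays, so the shATR label could not be checked by its target.

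CCNE1, which encodes cyclin E1, lay between 5.96 and 7.80 with a median of 6.74 on the knockdown arrays, against 8.85, 9.0 and 8.79 on the shControl arrays. The ranges did not overlap, and the mean difference was -2.10 ± 0.11 (SE) (adjusted p = 2.48e-10), with shATM least changed at -1.36 and shATR most at -2.76. A second CCNE1 probe was detected on few arrays and differed by 0.0098. Whether either probe reads the introduced cyclin E transcript is not given in the sources used here.

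The 3 genes of the 9p21 locus separated the groups completely. CDKN2A, the gene of p16 and ARF, was detected on 12 of 12 knockdown arrays, with levels of 7.96, 9.04 and 9.23 (lowest, median and highest), and on 0 of 3 shControl arrays, at 4.56, 4.50 and 4.60. It was at least 17-fold higher in the knockdowns (adjusted p = 1.86e-12). MTAP, a salvage enzyme encoded beside it, lay at 9.63, 9.98 and 10.14 against 4.68, 5.41 and 4.91 in shControl, a difference of 4.96 ± 0.12 (SE). CDKN2B, the gene of p15, was at least 2.84-fold higher, although another probe differed by 1.16. On the shControl arrays these genes lay at or near background, with MTAP detected on 2 of 3 and CDKN2B on 1 of 3 by its other probe. On the 12 knockdown arrays all 3 genes were detected, although MCF-10A is known to lack CDKN2A and CDKN2B. The reason was not tested. The shRNA against a kinase and the presence of 9p21 transcripts fall on the same arrays, so the 2 cannot be told apart in any difference given below.

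**Figure D1:**
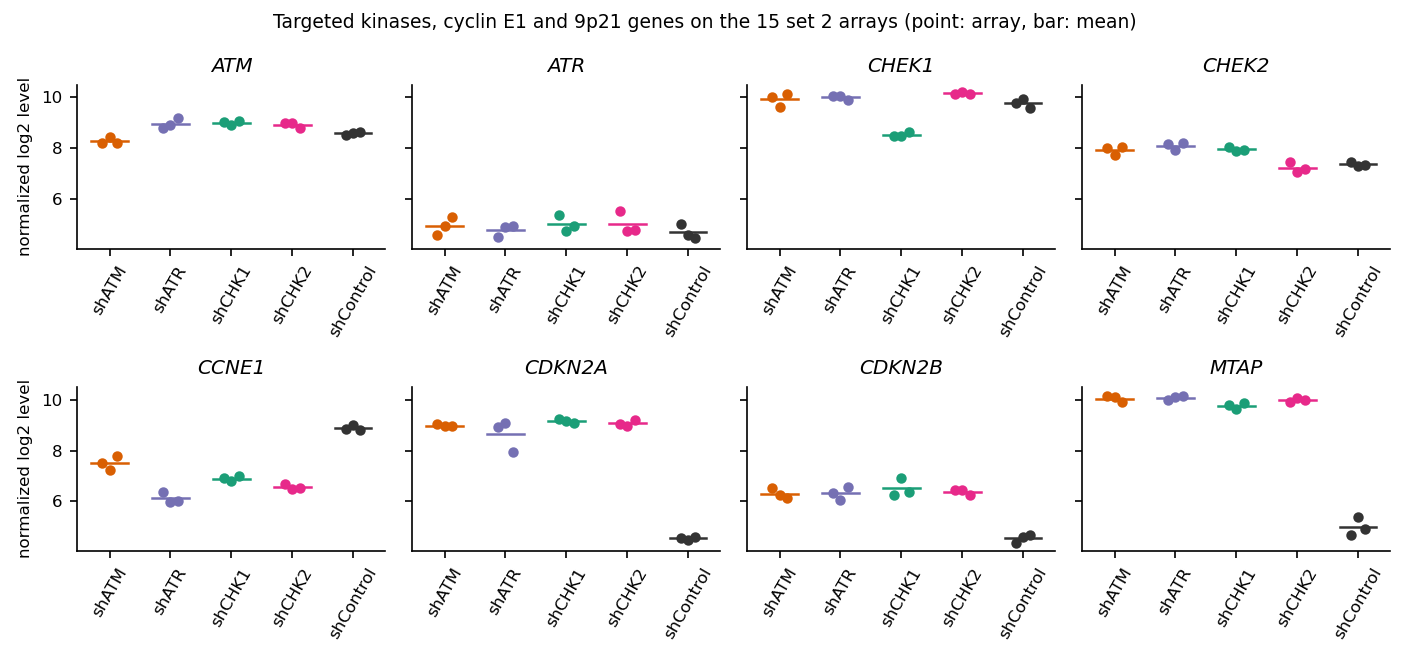
Normalized log2 level (y axis) of the targeted kinases, CCNE1 and the 3 genes of 9p21 on each of the 15 arrays, by shRNA (x axis); points are arrays and bars are group means. CHEK1, CHEK2 and ATM are lowest among the knockdowns under their own shRNA, ATR lies near background throughout, and CDKN2A lies between 7.96 and 9.23 on the knockdown arrays against 4.50 to 4.60 on the shControl arrays.

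Of 12534 genes tested, 7863 (62.7%) differed between the knockdowns and shControl at an adjusted p under 0.05. Of these, 3711 were higher (29.6% of the genes tested) and 4152 lower (33.1%). With a difference of at least 2-fold as well, 2359 genes (18.8%) remained, 898 higher (7.16%) and 1461 lower (11.7%). The median absolute difference was 0.42, and 83 genes were at least 8-fold higher and 202 at least 8-fold lower by the fitted difference. The values of all 12 knockdown arrays lay on one side of all 3 shControl values in 5751 genes (45.9%). Higher genes made up 47.2% of the calls with quantile normalization and 60.01% with median scaling, under which the median difference of all genes moved to 0.14 from -0.0039. At 2-fold the corresponding shares were 38.1% and 48.9%. The direction of small differences thus depends on the scaling, and those of the genes described next are far larger.

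The 12 largest differences in each direction were picked among called genes whose knockdown and shControl arrays did not overlap. The 12 genes with the largest positive differences were led by CCND2, which encodes the G1 cyclin D2. CCND2 lay at 12.59, 12.92 and 13.22 (lowest, median and highest of the knockdown arrays), among the brightest genes there, against 4.36, 4.29 and 4.36 in shControl, where it was not well above background. That is at least 259-fold higher, where such a bound sets each undetected array no lower than its dimmest detected probe (adjusted p = 8.01e-19). Its differences from shControl were 8.38, 8.75, 8.70 and 8.40 for shATM, shATR, shCHK1 and shCHK2. The other CCND2 probe differed by 6.89.

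DKK3, a secreted glycoprotein of the Dickkopf family, lay between 11.16 and 11.51 against 4.43 to 4.55 in shControl and was at least 88.6-fold higher, although 1 of its other probes differed by -0.15. TFPI2, a serine protease inhibitor of the matrix, was at least 80.9-fold higher and MMP1, the interstitial collagenase, at least 71.7-fold. FBN2, a fibrillin of elastic microfibrils, was at least 45.7-fold higher. MMP1 was the least even of the 12 among the knockdowns, with 6.93 in shATM and 5.45 in shCHK2.

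SNAI2, the transcriptional repressor Slug, lay at 10.88, 11.15 and 11.72 on the knockdown arrays, against 5.35, 4.87 and 5.17 in shControl. The difference was 6.08 ± 0.13 (SE), a fold of 67.8 (adjusted p = 1.9e-15), with a second probe at 5.31. GJA1, the gap junction protein connexin 43, was at least 76.5-fold higher with the 4 knockdowns within 0.12 of each other. The remaining genes were FEZ1 and DPYSL3, known for roles in axon outgrowth (at least 48.1-fold and 37.8-fold), BCAT1, a cytosolic branched-chain aminotransferase (at least 32.2-fold), DLK2, a non-canonical Notch ligand (at least 38.8-fold) and the haem protein CYGB (41.7-fold). DLK2 had 2 other probes, which differed by 0.19 and 0.30, and the 3 other probes of FEZ1 differed by 2.59 to 3.98.

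Among the 12 lowest genes, some were undetected in the knockdowns and others remained detected at a much lower level. RARRES1, a retinoid-responsive gene, was detected on 0 of 12 knockdown arrays, at 4.33, 4.53 and 4.68, against 13.79, 13.84 and 13.71 on the shControl arrays. It was at least 450-fold lower (adjusted p = 4.97e-19), the largest bound in either direction. The other RARRES1 probes differed by -8.47 and -4.71. CALB2, the calcium-binding protein calretinin, was at least 252-fold lower, with 1 other probe at -0.90. CYBA, a subunit of the NADPH oxidase, was at least 214-fold lower, and its 4 knockdown means lay within 0.1 of each other.

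MUC1, a transmembrane mucin, lay at 4.92, 5.47 and 6.55 on the knockdown arrays, against 13.11, 12.70 and 12.81 in shControl. It was 156-fold lower, with other probes at -6.87 and -2.79. The 3 shATM arrays were the highest of the knockdowns, and shATM differed from shControl by -6.55 where the other 3 lay between -7.66 and -7.44. MSLN, the surface protein mesothelin, was at least 131-fold lower, MGP, the matrix Gla protein, at least 171-fold, and ANPEP, aminopeptidase N, at least 88.1-fold. The aldo-keto reductase AKR1C2 was detected on all arrays, at 7.08, 7.29 and 8.03 against 14.54, 14.42 and 14.45, and was 131-fold lower, with its other probe at -2.37. COX7A1, a subunit of cytochrome c oxidase known from muscle, was at least 68.2-fold lower, and COXFA4L3, a paralogue of another subunit of that enzyme, was 150-fold lower, with other probes at -3.93 and -1.22. NCCRP1 and GDPD3, a phospholipid-cleaving enzyme, were 101-fold and at least 77.9-fold lower, and the other NCCRP1 probe differed by -5.05.

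**Figure D2:**
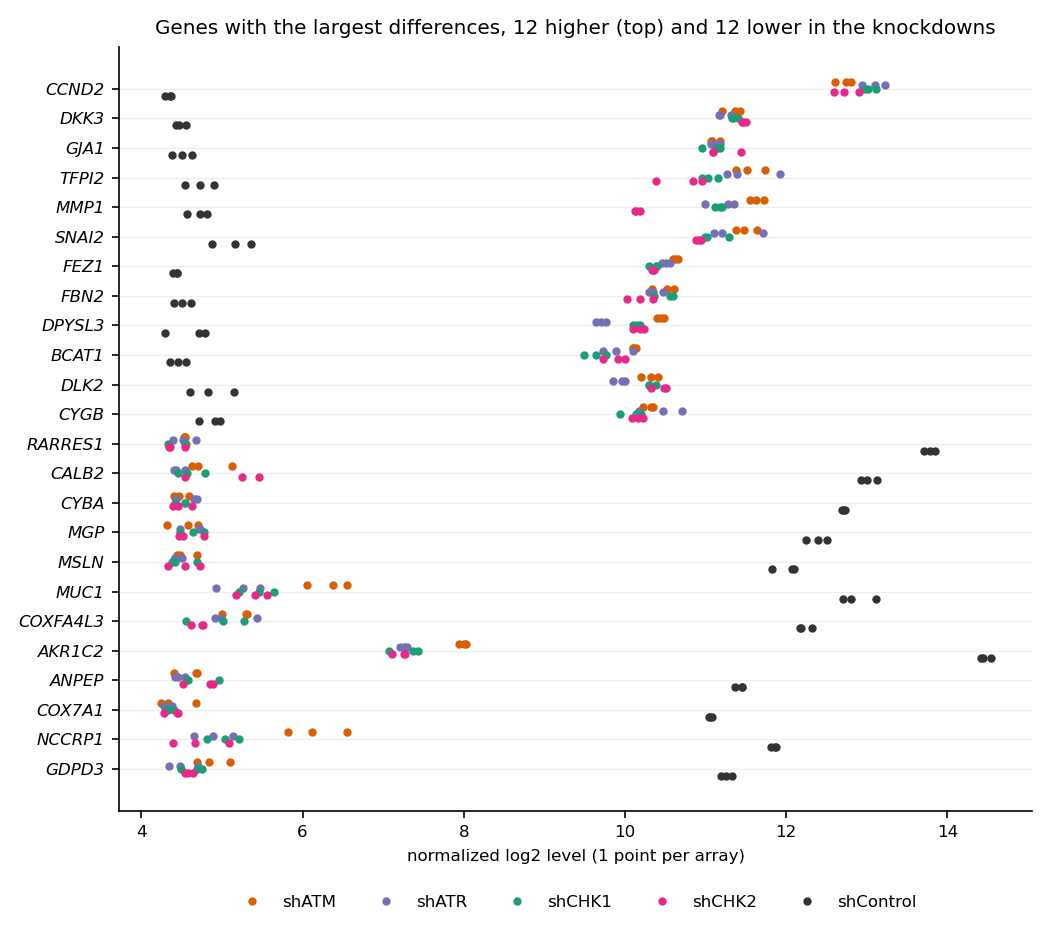
Normalized log2 level (x axis) of the 24 genes with the largest differences (rows) on each of the 15 arrays, coloured by shRNA, with the 12 higher genes above the 12 lower ones. The genes were picked among those whose 12 knockdown and 3 shControl arrays did not overlap, for example RARRES1 at 4.33 to 4.68 against 13.71 to 13.84.

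Detection calls need no fold. By any of their probes, 122 genes were detected on 12 of 12 knockdown and 0 of 3 shControl arrays, and 263 genes on 0 of 12 knockdown and 3 of 3 shControl arrays, of 20046 genes with a probe of a single symbol. A further 8997 genes were detected on all 15 arrays.

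Epithelial identity was read from marker genes of each cell type. The basal keratins KRT5 and KRT14 were detected on all 15 arrays, with differences of 0.39 and 0.62. So were the 4 pan-epithelial genes EPCAM (-0.34), GRHL2 (-1.24), ESRP1 (-1.49) and CDH1 (-1.79), which encodes E-cadherin. These 4 summed to 8560 to 11875 on the knockdown arrays, against 16052 to 16920 in shControl, in units of normalized intensity. The 9 tested luminal markers summed to 5910 to 8211 on the knockdown arrays, against 21551 to 23970 in shControl, in units of normalized intensity. Of 14 basal markers, 7 had a probe by symbol. These 7 summed to 8265 to 11330, against 28456 to 31518, a sum set largely by KRT15. ITGB4, LAMB3 and ITGA6, also among them, differed by -0.45, -0.42 and 0.067. KRT15, a keratin of basal cells, lay at 7.81, 8.51 and 9.65, against 14.35, 14.18 and 14.09, a difference of -5.57 ± 0.098 (SE). Of the other keratins among these markers, KRT7 and KRT18 were detected on all 15 arrays (-0.002 and 0.85), as were KRT8 (-2.97) and KRT16 (-0.88), while KRT19 (-3.08) was detected on 1 of 12 knockdown and 3 of 3 shControl arrays. Both groups thus carried epithelial keratins, in different proportions, and KRT5 and KRT14 are shared by other stratified epithelia, so these markers do not establish the tissue of origin.

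Markers of other cell types were in part undetected and in part present. CD14, of monocytes, averaged 7.43 on the knockdown arrays, against 10.11 in shControl. CSF1R averaged 4.65 against 7.34, PECAM1 4.67 against 8.02 and FAP, of activated fibroblasts, 7.01 against 8.65. CD14, FAP, CD68 and LYZ were detected on all 15 arrays. CSF1R was detected on 1 of 12 knockdown arrays and PECAM1 on 2 of 12, and both on 3 of 3 shControl arrays. The knockdown levels of CSF1R and PECAM1 thus lay near background, which limits the size of their differences. The leukocyte marker PTPRC was detected on 1 of 12 and 0 of 3 arrays, CD3E, VWF, KDR, COL3A1 and PDGFRB on none of the 15, and COL1A1 on 1 of 12 and 0 of 3. Of 13 leukocyte markers on the array, 6 were tested, and these summed to 1706 to 2592, against 2808 to 2945 in shControl, with CD14 at -2.67 ± 0.14 (SE) and CSF1R at -2.70 ± 0.11 (SE). The 2 endothelial markers tested summed to 43.4 to 65.4, against 290 to 296, mainly through PECAM1, and the 3 fibroblast markers tested to 131 to 393, against 434 to 483. What part such genes have in the differences was not tested.

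The counts of the gene lists below stand beside shares of 29.6% higher and 33.1% lower among all genes tested, and each bound on a fold is that of the mean of the 4 knockdowns. The lists were chosen with earlier results of these data known, so their counts and medians describe the members and are no independent test. Genes of epithelial differentiation were mostly lower. Of 24 tested genes of keratinocyte differentiation (of 33 listed), 18 were lower and 3 higher, 14 of them at least 2-fold lower, and the list median was -2.42, against -0.0039 for all genes tested. The kallikrein-related proteases KLK5, KLK7 and KLK6, which shed corneocytes in skin, differed most, by -6.51, -6.38 and -5.73. KLK5 lay at 5.49, 6.48 and 7.73 on the knockdown arrays, against 13.07, 13.14 and 13.02, with shATM highest among the knockdowns. CRABP2, a retinoic acid carrier, differed by -4.72 ± 0.13 (SE). The members called higher were S100A7, S100A8 and S100A9, at 0.83, 0.75 and 0.39. Restricted to probes detected on all 15 arrays, which leaves out genes absent from one side, the list median was -0.35.

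Luminal epithelial genes were lower in 13 of 17 cases and higher in 1, against 33.1% lower and 29.6% higher among all genes. The median was -2.47, and -1.28 without background correction. Besides MUC1, the largest were WFDC2, a secreted protease inhibitor (at least 20.3-fold lower), the epithelial transcription factor ELF3 (-3.68 ± 0.11 (SE)) and the receptor kinase ERBB3 (-3.44 ± 0.12 (SE), other probe -1.43). KRT18 was the member called higher, at 0.85. Of 11 tested basal genes, 6 were higher and 4 lower, with a median of 0.37 that was -0.016 with the mean of a gene's probes. Within the EGF family, 6 of 10 tested genes were lower and 2 higher, with a median of -0.87 (-0.56 with chromosome medians subtracted). The ligand BTC was at least 5.99-fold lower while the ligand NRG1 was higher by 2.60 ± 0.12 (SE) (other probes 0.13 and 1.03). LRIG1, a negative regulator of these receptors, was higher by 1.65 ± 0.083 (SE) (other probe 0.89).

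Of 23 tested junction genes, 15 were lower and 3 higher, and 11 were at least 2-fold lower, against 33.1% lower and 11.7% at least 2-fold lower among all genes. The median was -0.44, and -1.11 on probes detected on all 15 arrays. The tight junction claudins CLDN1 and CLDN7 differed by -3.18 ± 0.11 (SE) and -2.38 ± 0.085 (SE). The 3 higher members were GJA1, the desmosomal plakophilin PKP1 (at least 13.5-fold higher) and PKP2, at 0.26. The transcriptional repressors of the Snail family, SNAI2 among them, bind E-boxes with the letters CAGGTG, and this motif was searched on both strands in the 250 bases before the start of each gene. Of the 23 tested junction genes, 15 had a RefSeq promoter in the table at hand, and 5 of these (33.3%) held the motif, against 17.5% of 35116 promoters. Of the 9 matched genes called lower, 3 held it: CRB3, a polarity protein of tight junctions, DSC2, a desmosomal cadherin, and TJP1, the scaffold ZO-1. DSP and DSG2, which were not called lower, held it too. A match describes the letters only, and no binding was measured. The 3 promoters shown are all those with the motif among the 9 matched junction genes called lower. They are given 5′ to 3′ on the gene's strand, from RefSeq (GRCh38.p14), with the motif or its reverse complement CACCTG in capitals. They lie at chr19:6464021-6464270 (plus strand), chr18:31102422-31102671 (minus) and chr15:29969050-29969299 (minus).
CRB3: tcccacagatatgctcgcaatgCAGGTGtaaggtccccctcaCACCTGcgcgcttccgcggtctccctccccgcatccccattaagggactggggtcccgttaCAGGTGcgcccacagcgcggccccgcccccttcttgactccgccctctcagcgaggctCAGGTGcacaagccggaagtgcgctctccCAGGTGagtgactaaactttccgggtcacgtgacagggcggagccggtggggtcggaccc
DSC2: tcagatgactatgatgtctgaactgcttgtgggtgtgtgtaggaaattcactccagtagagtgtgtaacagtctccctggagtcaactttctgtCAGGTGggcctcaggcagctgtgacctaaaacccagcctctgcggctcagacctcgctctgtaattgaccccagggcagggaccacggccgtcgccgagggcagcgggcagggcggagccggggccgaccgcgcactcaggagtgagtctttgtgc
TJP1: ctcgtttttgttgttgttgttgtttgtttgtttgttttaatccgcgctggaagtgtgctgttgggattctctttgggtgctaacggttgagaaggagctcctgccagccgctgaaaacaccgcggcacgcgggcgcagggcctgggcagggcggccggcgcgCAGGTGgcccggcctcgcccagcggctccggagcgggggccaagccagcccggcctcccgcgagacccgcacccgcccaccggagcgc

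Genes expressed by mesenchymal cells and of the matrix did not move one way. Of 20 tested, 9 were higher and 7 lower, 13 of them at least 2-fold, and the median of 0.066 changed sign with the detection filter (-0.36 on probes detected on all 15 arrays). Beside DKK3, SNAI2 and FBN2, VIM (vimentin) was higher by 2.86 and SPARC by 2.50, both named after their values were seen. S100A4, a calcium-binding protein of motile cells, was lower: it lay at 6.73, 7.11 and 7.93 on the knockdown arrays, against 12.91, 12.82 and 13, a 52.3-fold lower level. TWIST1 (-1.28) and TWIST2 (1.89), paralogous transcription factors, were called in opposite directions.

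Targets of TGF-beta and YAP signalling were mostly higher, 12 of 19 tested against 2 lower, where 29.6% of all genes were higher and 33.1% lower. The median was 0.54, and 0.22 without background correction. The receptor kinase AXL was higher by 3.12 ± 0.12 (SE), the activin antagonist FST by 2.69 ± 0.077 (SE) and the matricellular protein CCN1 by 2.47 ± 0.091 (SE). ID2, a helix-loop-helix inhibitor, was at least 3.33-fold lower, with its other probe at -1.27. Among matrix metalloproteinases and their inhibitors, MMP1 and PLAT, the tissue plasminogen activator (2.85 ± 0.14 (SE)), were higher, whereas MMP9 (-3.43 ± 0.12 (SE)) and the inhibitor TIMP2 (-3.20 ± 0.13 (SE)) were lower. Of these 12 tested genes, 5 were higher and 5 lower.

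Notch and WNT genes were higher in 10 of 17 cases and lower in 4 (median 0.32, and 0.17 without background correction). The Notch ligand DLL1 was at least 13.1-fold higher and WNT7A at least 7.71-fold, while the receptor NOTCH3 was at least 10.1-fold lower. In the insulin-like growth factor axis, the binding protein IGFBP3 was detected on 0 of 12 knockdown arrays and was at least 65.5-fold lower. IGFBP7 was at least 7.49-fold higher, although shATM differed by 1.58, short of that bound, against 3.27 or more in the other 3. The adaptor IRS1 was higher by 2.06 ± 0.11 (SE).

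Inflammatory genes split by member. IL1B, the secreted interleukin 1 beta, lay at 12.59, 13.11 and 13.42 on the knockdown arrays, against 7.98, 7.92 and 7.99, and was 34.1-fold higher (adjusted p = 8.98e-16). IL1A was 11.5-fold higher, and the granulocyte growth factor CSF3 at least 19.8-fold, although the other CSF3 probes differed by 1.73 and 3.73. The receptor antagonist IL1RN, which blocks the action of both interleukins, was lower, with a difference of -3.59 ± 0.14 (SE), although its other probe differed by -0.40. Of 24 tested members, 11 were higher and 6 lower, with a median of 0.27 (0.13 to 0.66 across the alternative settings), and 12 (50%) passed both thresholds against 18.8% of all genes tested.

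Of 13 tested genes of MHC class I presentation, 10 were lower and 1 higher, with a median of -0.76 (-0.42 with the authors' log2 values). HLA-B differed by -1.96 ± 0.16 (SE), although paralogous HLA genes can share probe sequence, and the immunoproteasome subunits PSMB10 and PSMB8 differed by -1.33 ± 0.085 (SE) and -1.14 ± 0.11 (SE). The 3 other probes of PSMB8 differed by -0.87 to -0.098. TAPBP, the tapasin that loads peptides, differed by -0.94 ± 0.091 (SE), and by -0.34 and -0.33 on its other probes. Interferon-stimulated genes were divided, 8 of 22 higher and 10 lower. CXCL10, a T cell chemokine, was lower, at -2.88 ± 0.15 (SE), and so was HERC6, at -1.70 ± 0.12 (SE).

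NRF2 is a transcription factor that raises detoxifying enzymes through antioxidant response elements. Of 19 tested targets, 12 were lower and 1 higher (median -0.64, and -0.35 with the mean of a gene's probes), 8 of them at least 2-fold lower. The aldo-keto reductases AKR1C2 and AKR1C3 were the largest, and AKR1C3 lay at 7.54, 7.69 and 8.40, against 13.29, 13.45 and 13.34, a 47.1-fold lower level; their close sequence means that probes may read both. ALDH3A1, an aldehyde dehydrogenase, was at least 18-fold lower and the transporter ABCC2 at least 10.3-fold. SRXN1, a sulfiredoxin, was the member called higher, at 0.64. The core of the response element, TGACNNNGC on either strand, occurred in 6 of the 13 matched promoters (46.2%), against 10.9% of the 35116. Of the 7 matched genes called lower, 2 held it, the pentose phosphate enzyme PGD (-1.12) at chr1:10398814-10399063 and the thioredoxin reductase TXNRD1 (-0.64) at chr12:104215529-104215778, both on the plus strand. GCLM, GPX2, ME1 and CBR1, which were not called lower, held it too. The PGD and TXNRD1 promoters are shown in the same way, with the match in capitals.
PGD: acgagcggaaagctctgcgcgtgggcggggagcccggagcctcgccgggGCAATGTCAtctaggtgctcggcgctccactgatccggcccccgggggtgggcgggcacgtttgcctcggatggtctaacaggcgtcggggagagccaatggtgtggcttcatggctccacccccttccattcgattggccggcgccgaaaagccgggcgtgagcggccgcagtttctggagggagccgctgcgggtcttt
TXNRD1: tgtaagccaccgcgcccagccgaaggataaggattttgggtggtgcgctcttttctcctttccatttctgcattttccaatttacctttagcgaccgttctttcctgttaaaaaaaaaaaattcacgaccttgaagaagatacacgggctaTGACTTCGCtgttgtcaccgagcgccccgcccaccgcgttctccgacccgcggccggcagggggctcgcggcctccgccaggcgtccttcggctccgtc

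**Figure D3:**
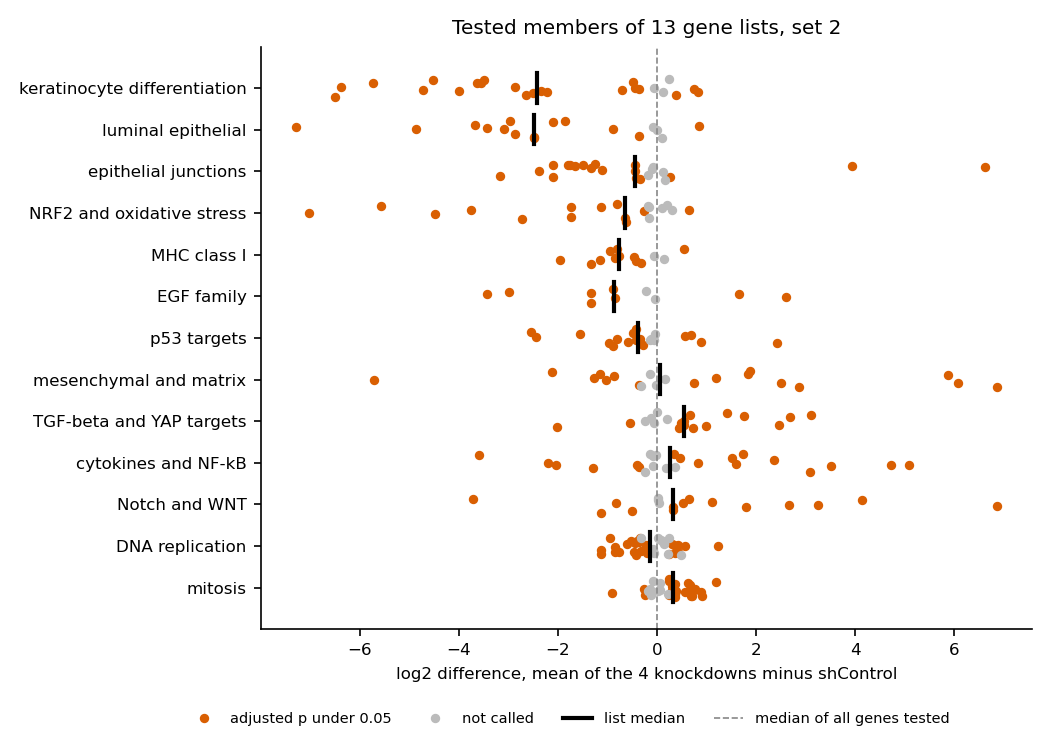
Log2 difference between the mean of the 4 knockdowns and shControl (x axis) of each tested member of 13 gene lists (rows), coloured by whether the adjusted p was under 0.05, with the list median as a black bar and the median of all genes tested as a dashed line. Keratinocyte differentiation (median -2.42) and luminal genes (-2.47) lie mostly to the left, and TGF-beta and YAP targets (0.54) to the right.

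Genes of the pathway that the shRNAs target were called in both directions. Of 21 tested checkpoint signalling genes, 5 were higher and 5 lower, and 3 (14.3%) passed both thresholds against 18.8% of all genes. TIPIN and TIMELESS, which form the fork protection complex, differed in opposite directions, by 1.58 ± 0.11 (SE) and -1.07 ± 0.11 (SE). H2AX, the histone that checkpoint kinases phosphorylate, was higher by 1.07 ± 0.099 (SE), and CDC25A, a phosphatase that CHK1 marks for degradation, by 0.61 ± 0.11 (SE). Of 13 tested recombination genes, 4 were higher and 2 lower, none by 2-fold, with BRCA1 at 0.59 ± 0.077 (SE) and its partner BARD1 at -0.88 ± 0.098 (SE).

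Replication genes were lower in 18 of 38 cases and higher in 9, against 33.1% and 29.6% of all genes, and 7.89% of them passed both thresholds against 18.8%. Their median of -0.14 was 0.18 under median scaling. GINS4, of the replicative helicase, differed by -1.13 ± 0.096 (SE), the ligase LIG1 by -1.12 ± 0.087 (SE) and the primase subunit PRIM2 by 1.22 ± 0.22 (SE). Mitotic genes were higher in 21 of 32 cases and lower in 3, with a median of 0.33 that lay between 0.29 and 0.53 across the alternative settings. Their differences were small: NUF2 and NDC80 of the kinetochore were higher by 1.19 ± 0.12 (SE) and 0.92 ± 0.11 (SE), PLK1 by 0.89 ± 0.10 (SE), and CENPF was lower (-0.91 ± 0.1 (SE)). Only 1 of the 32, which is 3.13%, passed both thresholds.

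G1 regulators were called both ways, 7 of 20 higher, CCND2 among them, and 6 lower (65.0% called, against 62.7% of all genes). The E2F activator E2F2 lay at 6.17, 6.61 and 7.37, against 10.34, 10.21 and 10.16, and was 11.4-fold lower. CDKN1A, the gene of the CDK inhibitor p21, lay at 11.38, 11.91 and 12.27, against 14.24, 14.42 and 14.36, and was 5.45-fold lower, with 1 other probe at -0.14. Targets of p53 were lower in 12 of 20 cases and higher in 4 (median -0.38, and -0.21 under median scaling). TP53INP1 (-2.53 ± 0.11 (SE)) and RRM2B (-1.56 ± 0.086 (SE)) were lower, and MDM2, the ubiquitin ligase of p53, was higher by 2.42 ± 0.12 (SE), with its other probe at 0.62. Histone genes were lower in 6 of 11 cases and higher in 0, led by H2BC5 (-2.74 ± 0.11 (SE)).

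Of 35 tested subunits of oxidative phosphorylation, 18 were lower and 2 higher, with a median of -0.22 that was 0.074 under median scaling, and COX7A1 was the 1 member past 2-fold. Of 24 glycolysis and hypoxia genes, 11 were lower and 5 higher (66.7% called, against 62.7% of all genes, with a median of -0.19 that was 0.12 under median scaling); the glucose transporter SLC2A3 was at least 4.88-fold higher on average, with shCHK1 at 2.19, and ANKRD37 lower (-1.52 ± 0.14 (SE)). Cholesterol synthesis genes were lower in 10 of 19 cases and higher in 4, with INSIG1, a sterol-dependent regulator, at -1.93 ± 0.096 (SE) and TM7SF2, a sterol reductase, at -2.35 ± 0.16 (SE). Of 18 genes of the unfolded protein and integrated stress responses, 9 were lower and 1 higher. Their median was -0.39, and -0.14 under median scaling. Asparagine synthetase ASNS differed by -2.01 ± 0.08 (SE), with its other probe at -1.12, and ATF3 by -1.95 ± 0.18 (SE). Immediate early and ERK-responsive genes were evenly divided, 9 of 24 higher and 9 lower. JUND differed by -1.66 ± 0.088 (SE) and the feedback inhibitor SPRY1 by 1.65 ± 0.083 (SE), with the other SPRY1 probe at 0.96.

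Of 30 ribosomal protein genes, 4 were higher and 7 lower (36.7% called, against 62.7% of all genes), and RPS23 alone passed 2-fold, at 2.91 ± 0.10 (SE). Of 15 common reference genes, TUBB, SDHA, ACTB and GAPDH differed least, by 0.00, -0.01, -0.02 and -0.03, each with an SE of 0.09 to 0.10. Under median scaling all 4 were between 0.27 and 0.47 higher. With the mean of a gene's probes TUBB differed by 0.27 and GAPDH by -0.30, and with chromosome medians subtracted ACTB differed by 0.59. GUSB (-1.04 ± 0.079 (SE)) and TFRC (-0.99 ± 0.088 (SE)), also used as references, were lower.

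Differences were not spread evenly over the chromosomes. Of 573 tested genes on chromosome 16, 63.4% were called lower and 10.1% higher, with a median of -0.48, and the 4 knockdowns lay between -0.48 and -0.45. On chromosome 20, 55.3% of 338 genes were higher and 16.3% lower, with a median of 0.34 (0.32 to 0.39 by knockdown). Chromosomes 7 and 8 had medians of -0.28 and -0.19. Chromosome 4 had a median of -0.32 in shATM, against -0.12, -0.11 and -0.087 in shCHK1, shATR and shCHK2. Under median scaling, which moved the median of all genes to 0.14 and single lists by other amounts, the medians were -0.27 for chromosome 16 and 0.43 for chromosome 20. After each array's chromosome medians were subtracted, 8040 genes were called and 2271 passed both thresholds. DNA copy number was not measured here.

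**Figure D4:**
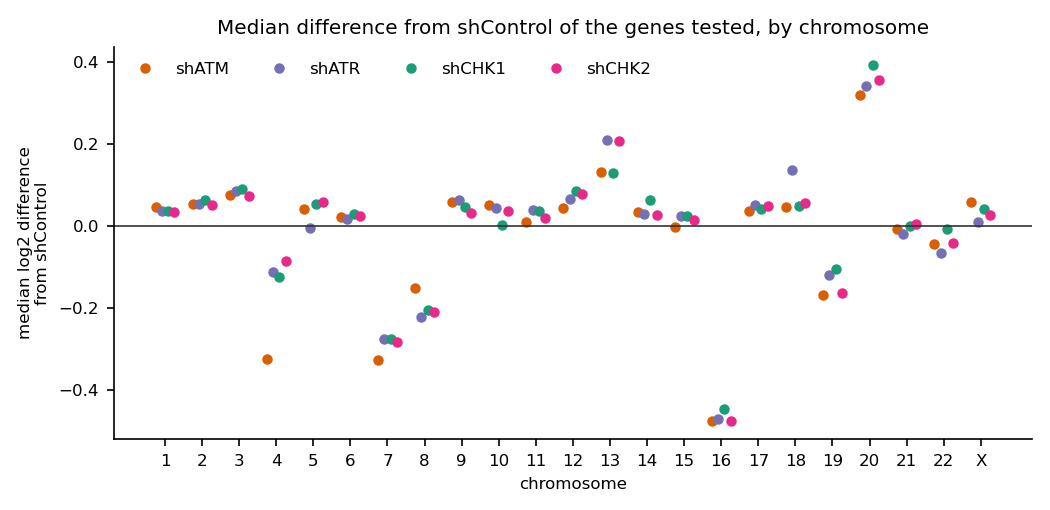
Median log2 difference from shControl (y axis) of the tested genes on each chromosome (x axis), with 1 point per knockdown. Chromosome 16 lies between -0.48 and -0.45 and chromosome 20 between 0.32 and 0.39 in all 4 knockdowns, and shATM stands apart on chromosome 4 at -0.32.

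Taken one by one against the same shControl arrays, the knockdowns gave counts of similar size. At an adjusted p under 0.05 and at least 2-fold, 2354 genes (18.8%) were called in shATM, 2431 (19.4%) in shATR, 2360 (18.8%) in shCHK1 and 2540 (20.3%) in shCHK2. The median spread between the highest and lowest knockdown mean of a gene was 0.30. In 7622 genes (60.8%) the absolute difference from shControl exceeded the gene's own spread between the highest and lowest knockdown mean.

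The 4 knockdowns differed from each other in 1095 genes (8.74%) by limma's moderated F-test, and in 198 (1.58%) with a spread of at least 2-fold as well. KYNU, a hydrolase of tryptophan breakdown, split them in pairs: it averaged 7.84 in shATM and 7.85 in shATR, 10.23 in shCHK1 and 10.37 in shCHK2, and 13.77 in shControl (F-test adjusted p = 6.14e-10). Its difference from shControl was -5.94 and -5.93 in the first pair, and -3.54 and -3.41 in the second. No array of one pair reached the range of the other.

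shATM stood furthest from the rest, with 1045 genes (8.34%) that differed from the mean of the other 3, against 182 (1.45%) for shATR, 115 (0.918%) for shCHK1 and 471 (3.76%) for shCHK2. The zinc finger gene REPIN1 averaged 5.17 in shATM, against 7.42 to 8.22 in the other knockdowns and 11.44 in shControl. THY1, a surface glycoprotein, was at 4.57 in shATM, near the 4.34 of shControl where it was not detected, and at 6.73, 6.83 and 7.69 in shATR, shCHK1 and shCHK2. DCN, the proteoglycan decorin, averaged 7.06 in shATM, against 4.46 to 5.09 in the other knockdowns and 5.01 in shControl. MGMT, a DNA repair enzyme for alkylated guanine, was least lowered in shATM (-0.98) and most in shCHK2 (-3.94). PHACTR3 was most raised in shATM (3.93) and least in shCHK2 (1.40), and GSPT2, a translation release factor, was higher by 0.70 in shATM and by 2.62 to 2.78 in the others.

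In the other knockdowns, single genes stood apart. ATP6V0E2, a proton pump subunit, averaged 5.38 in shATR, against 6.69 to 6.94 in the other knockdowns and 10.88 in shControl. The sulfotransferase HS3ST2 differed from shControl by 2.65 in shCHK1, and by 0.85 to 1.77 in the others. The count for shATR rests partly on single arrays: it was 69 without its replicate 3, 88 without its replicate 2, and 113 to 117 without shATM replicate 1, shCHK1 replicate 3, shCHK2 replicate 1 or shControl replicate 1 or 3. For shCHK2 it was 248, 265 and 222 without its own replicates 1, 2 and 3, for shCHK1 59, 59 and 66, and for shATM 681 without its replicate 3.

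In 50 genes, at least 1 knockdown was called higher and at least 1 lower than shControl. MACROH2A2, a histone variant gene, averaged 8.47 in shATM, 6.34 in shATR, 7.11 in shCHK1 and 4.96 in shCHK2, against 7.40 in shControl. Its differences were 1.07 in shATM (adjusted p = 6.9e-05) and -2.44 in shCHK2 (adjusted p = 8.18e-09), and no arrays of these 2 groups overlapped. HES7, a repressor downstream of Notch, was lower in shATM (-1.29) and higher in the other 3 (0.72 to 0.85). NAP1L5 had the same order, with -0.68 in shATM and 1.06 in shCHK2, and MPP1 the reverse, with 0.63 and -0.59.

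**Figure D5:**
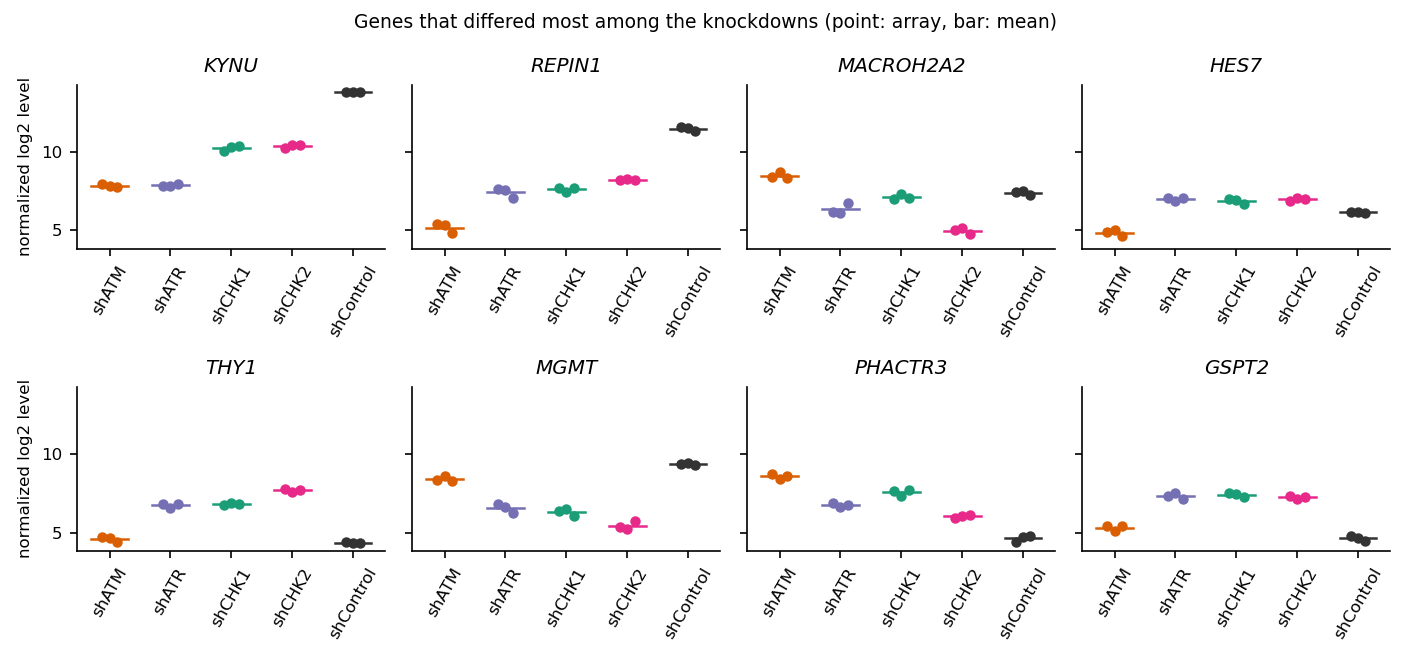
Normalized log2 level (y axis) of 8 genes with the strongest F-test among the knockdowns, on each of the 15 arrays by shRNA (x axis); points are arrays and bars are group means. KYNU lies near 7.8 in shATM and shATR and above 10 in shCHK1 and shCHK2, against 13.8 in shControl, and MACROH2A2 lies above shControl in shATM and below it in shCHK2.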

How the data were processed

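RNA was read on 30 bead arrays, of which 15 (set 2) were used here. The authors' deposited table without normalization holds the linear intensity of every probe, from which no background had been taken off, and beside it, per the file headers, a detection p-value. The authors also deposited log2 values, which correlated with the log2 intensity of the same array at r = 0.999 or above; they served as an alternative. Software used by the authors is not given in the sources used here.

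Intensities of the 15 arrays were background corrected and quantile normalized with neqc (limma 3.58.1, R 4.3.3), for which limma infers the negative controls from the detection p-values, with an offset of 16. Probes with a detection p under 0.05 on at least 3 arrays were kept (23625 of 47231), and the brightest kept probe stood for its gene. Of the probes, 30113 had 1 gene symbol in the annotation, 8 several and 17110 none; 30074 symbols were updated through RefSeq (GRCh38.p14). limma fitted 1 mean per group (10 residual degrees of freedom), with two-sided p-values adjusted by Benjamini-Hochberg over 12534 genes. The precision is limited by the number of arrays. A fold is given as a bound where a minority of the arrays on its dimmer side detected the probe.

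The comparison and the 31 gene lists (711 entries, 576 tested) were chosen with earlier results of these data known. Named genes are the 4 targets, CCNE1, the 9p21 genes, the 12 largest called non-overlapping differences per direction, up to 4 called members per list, the top 8 by F-test with a spread over 2-fold, the 3 largest per shRNA against the rest, 4 genes called in opposite directions and the 4 steadiest reference genes. Members of counts of 5 or fewer, and VIM, SPARC, TWIST1 and TWIST2, were named after their values were seen. Same-numbered replicates did not deviate together (r between -0.061 and 0.078), so the numbers were not taken as pairs. Chromosomes stood in for chromosome arms, which the annotation used here does not give. Alternatives were the authors' values, no background correction, median scaling, all 30 arrays, other filters, the mean of probes, a replicate block, other variance estimates and groupings, chromosome medians subtracted and leaving out each array.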

Additional observations from a re-analysis of the deposited data

Results flagged for a closer look

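Among probes without a single gene symbol, which no comparison above uses, 38 were detected on 12 of 12 knockdown arrays and on 0 of 3 shControl arrays. Another 93 such probes were detected on 0 of 12 knockdown and 3 of 3 shControl arrays. Their targets are not named here.

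The effects of the knockdowns against the same shControl arrays differed in direction in 50 genes, each called higher in at least 1 knockdown and lower in at least 1 other. MACROH2A2, HES7, NAP1L5 and MPP1 had the largest such differences, and limma's F-test among the 4 knockdowns gave adjusted p-values of 8.69e-08, 8.69e-08, 1.47e-05 and 0.000265 for them.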

How the results depend on the processing

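The count of 7863 genes stayed within 1.5 times of itself under all 12 alternatives and all 15 omissions of an array that were run (5908 with 1 mean per shRNA, 8449 with median scaling, 7069 to 8082 without 1 array). With a replicate block it was 7851, and the block changed no count by over 1.5 times. The counts at 2-fold depended on the background step: with the authors' log2 values they were 1131 for all knockdowns and 1114, 1177, 1123 and 1235 for shATM, shATR, shCHK1 and shCHK2, and without background correction 1192, 1166, 1239, 1184 and 1285. On probes detected on all 15 arrays, where fewer genes are tested, they were 1565 for all knockdowns, 1532 for shATM and 1562 for shCHK1. Of genes against the other 3 knockdowns, shATR and shCHK2 had 329 and 716 with the authors' values and 334 and 718 without background correction. With all 30 arrays, shATR, shCHK1 and shCHK2 had 452, 297 and 859, and the F-test called 1924. An intensity trend with robust estimation gave 304 for shATR. Without 1 array the ranges were 681 to 1169 for shATM, 69 to 159 for shATR, 59 to 147 for shCHK1 and 222 to 642 for shCHK2. The causes were not tested. Of 153 named genes, those that reversed were SDHA (0.27), ACTB (0.47) and GAPDH (0.41) under median scaling, and RPL13 (0.020), CDH5 (0.16) and ACTB (0.59) with chromosome medians subtracted. On probes detected on all 15 arrays, only 93 of the 153 could be followed. With the 12 knockdown arrays as 1 group, CHEK2, HES7, MACROH2A2 and NAP1L5 were no longer called against shControl. No slide is given in the headers, so a slide block was not run. Levels near background limit the folds of absent genes to bounds.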
